A study of Mus musculus with 19 samples.

Results

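The E10.5 mouse lens was set against whole embryonic body, using 7 of the 19 arrays of a series on the developing lens and tooth: the 3 arrays titled as E10.5 lens and the 4 arrays of the whole body made as control for the lens. The arrays were chosen by these titles, and none was chosen by its values. All embryos were wild-type ICR mice, an outbred strain, staged with the day of the vaginal plug as E0.5. Lenses were microdissected, kept in RNAlater and frozen, and total RNA was labelled as biotinylated cRNA for Affymetrix expression arrays. The labels place the whole-body samples between E10.5 and E12.5 without a stage for each array, so organ and stage cannot be told apart in this comparison, and they do not say whether the eyes were left in the body. They also do not say whether replicates came from separate litters or pools, so the p-values measure the spread between arrays, which may be technical. Levels are log2 of the deposited linear signal, 1 probe set for each gene, and 13320 of 18193 genes were tested because their level passed 5.46, the median of all values, on at least 3 of the 19 arrays. A gene that passed only through the lens arrays had to differ, and the counts below describe the tested genes of a list and not all of its members.

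At about this stage the lens placode, a thickening of the head surface ectoderm beside the optic vesicle, folds inward as the lens pit and pinches off as the lens vesicle. Pax6, Six3 and Sox2 act early in this sequence, and Maf, Prox1, Pitx3 and Foxe3 act as the vesicle forms its anterior epithelium and posterior fibre cells. Crystallins are the soluble proteins that fill lens fibre cells: the alpha crystallins are small heat shock proteins, and the gamma crystallins mark fibre differentiation. In bulk tissue, fewer cells of a type and less RNA per cell cannot be told apart.

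The 7 arrays had medians of 43.7 to 44.4 linear signal units, and arrays of the same group correlated at 0.9857 to 0.9947 across genes, against 0.93 to 0.9397 between lens and body. No array pair shared more than 2.042% of its values, so no array was a copy of another. Replicate 3 of the E10.5 lens stood apart. It correlated at 0.9857 and 0.9862 with replicates 1 and 2, which correlated at 0.992 with each other. With E11.5 lens replicates 1, 2 and 3 it correlated at 0.9665, 0.9907 and 0.9918. Its level exceeded the mean of replicates 1 and 2 by more than 1 log2 unit in 159 tested genes and was lower by more than 1 unit in 25. Replicates 1 and 2 differed from each other by more than 1 unit in 58 genes. List counts against body that differ without replicate 3 are therefore given both ways. The signal of the bacterial control probe sets split the arrays further. E10.5 lens replicates 1 and 2, E11.5 lens replicate 1 and body replicates 2 and 3 were in a high set. E10.5 lens replicate 3, E11.5 lens replicates 2 and 3 and body replicates 1 and 4 were in a low set. Replicate 3 and the low set therefore cannot be told apart within the E10.5 lens.

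Against whole body, 1797 genes were called higher in E10.5 lens, 13.5% of the genes tested, and 2548 were called lower, 19.1%, together 32.6% (limma, Benjamini-Hochberg adjusted p below 0.05 over all tested genes). At least 2-fold differences were found for 486 of the higher genes and 1347 of the lower genes. The split of calls depended on scaling: 41.4% of called genes were higher in lens as deposited, 50.9% after each array was centred on its median and 51.7% after quantile normalization. Without replicate 3, 1606 genes were called higher and 2413 lower, and 1468 and 2300 of these were called in the same direction with it. No called gene changed sign. All lens arrays lay above all body arrays in 17.7% of tested genes and below them in 22.7%. Within the high control set, which holds lens replicates 1 and 2, 1229 genes were called higher and 2132 lower, and within the low set, which rests on lens replicate 3 alone, 962 and 1876, with the spread of all the groups lent to the lone array.

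**Figure D1:**
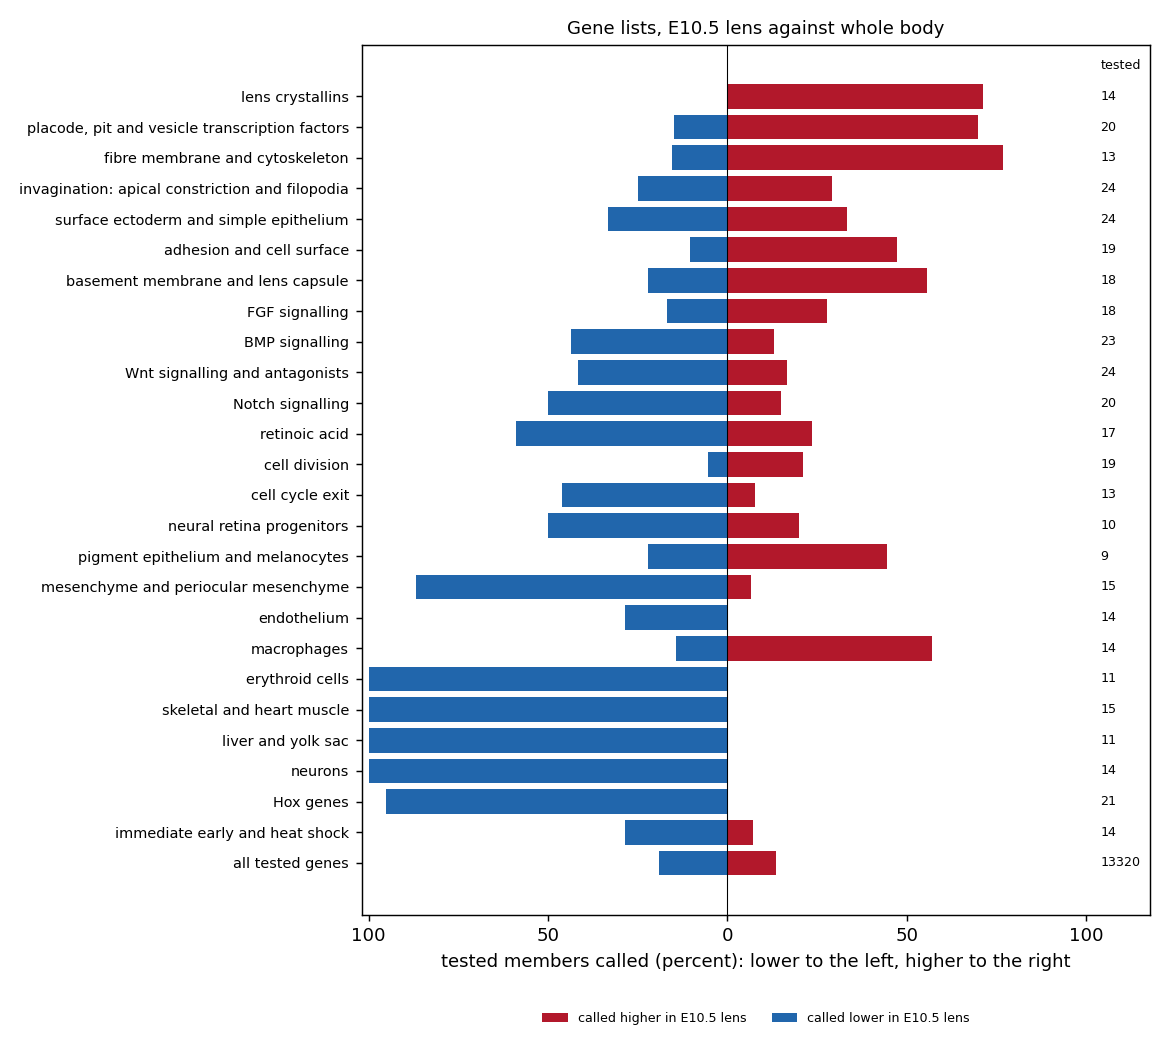
Percent of the tested members of each gene list called higher (right) or lower (left) in E10.5 lens against whole body, with the number of tested members at the right edge. Crystallins, lens transcription factors and fibre genes lie to the right with 71.4%, 70% and 76.9% called higher, muscle, liver, neuron and erythroid lists lie wholly to the left, and all tested genes show 13.5% higher and 19.1% lower.

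Most crystallins were far above body in the E10.5 lens. Of 16 listed genes 14 were on the array and tested, 10 were called higher in E10.5 lens and none lower, with a median difference of 4.52 log2 units, against -0.01 over all tested genes. The share called higher was 71.4%, against 13.5% over all tested genes. The same count of 10 was called without replicate 3, with a median of 3.11. Within the high control set 11 were called and within the low set, where replicate 3 is the lens array, 14. Cryaa, the alpha A crystallin, had 12.47, 12.55 and 14.15 in the 3 lens arrays, against 4.78, 4.77, 5.46 and 5.06 in the body arrays, a difference of 8.04 ± 0.30 (SE, adjusted p = 1.8e-13). All lens arrays were far above all body arrays, and the body levels lay at or under the filter level of 5.46, where the size of a difference is uncertain. Cryab, the alpha B crystallin, which muscle and other tissues also make, had 12.13, 12.32 and 12.70 in lens, against 8.03, 7.86, 7.83 and 7.62 in body (4.54 ± 0.22, adjusted p = 3.8e-12). Its body level was above the filter level on every body array.

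Beta crystallins, the oligomeric relatives of the gamma crystallins, were above body in all lens arrays for most members, with large spread. Cryba1 had 11.34, 11 and 14.25 in lens, against 4.71, 5.27, 4.72 and 4.18 in body (7.48 ± 0.76, adjusted p = 1.7e-07). Crybb3 had 12.60, 12.21 and 14.10 in lens, against 6.0, 6.74, 6.54 and 6.25 in body (6.59 ± 0.45, adjusted p = 7.1e-10). Both were high in every lens array and highest in replicate 3. Crybb1 had 8.86, 8.58 and 13.98 in lens, against 5.57, 6.32, 6.36 and 5.66 in body, and Cryba2 8.19, 7.71 and 13.17, against 5.33, 5.33, 6.41 and 5.19. For both, replicate 3 lay farther above the other lens arrays than these lay above body, and the difference without it was 2.74 (adjusted p = 5.4e-06) for Crybb1 and 2.38 (adjusted p = 7.4e-05) for Cryba2.

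Some gamma crystallins were above body in all lens arrays, and others were far above it in replicate 3 alone. Crygs, the gamma S crystallin, had 7.91, 8.11 and 11.28 in lens, against 3.84, 4.29, 4.51 and 3.82 in body, and was called without replicate 3 (3.89, adjusted p = 1.1e-06). Crygd had 7.87, 8.14 and 13.80 in lens, against 4.03, 4.75, 4.99 and 4.37 in body, and was also called without it (3.47, adjusted p = 3.8e-06). By contrast Cryga had 4.50, 4.49 and 13.73 in lens, against 4.39, 3.88, 4.75 and 4.24 in body, so that lens replicates 1 and 2 overlapped body. Crygb (4.03, 3.89 and 13.46 in lens, against 3.60, 3.47, 3.49 and 3.78 in body), Cryba4 (5.47, 5.35 and 13.56 in lens) and Crygf (6.63, 6.44 and 13.38 in lens, with body up to 6.40) were likewise near body in replicates 1 and 2, and none of these 4 genes was called, with adjusted p between 0.0645 and 0.15 with replicate 3 and between 0.574 and 0.927 without it. The gamma crystallin genes on chromosome 1, here Cryga, Crygb, Crygd and Crygf, are close copies. A probe set may read more than 1 of them, and a level for a single gene of these is uncertain. Crygs lies apart from them on chromosome 16.

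**Figure D2:**
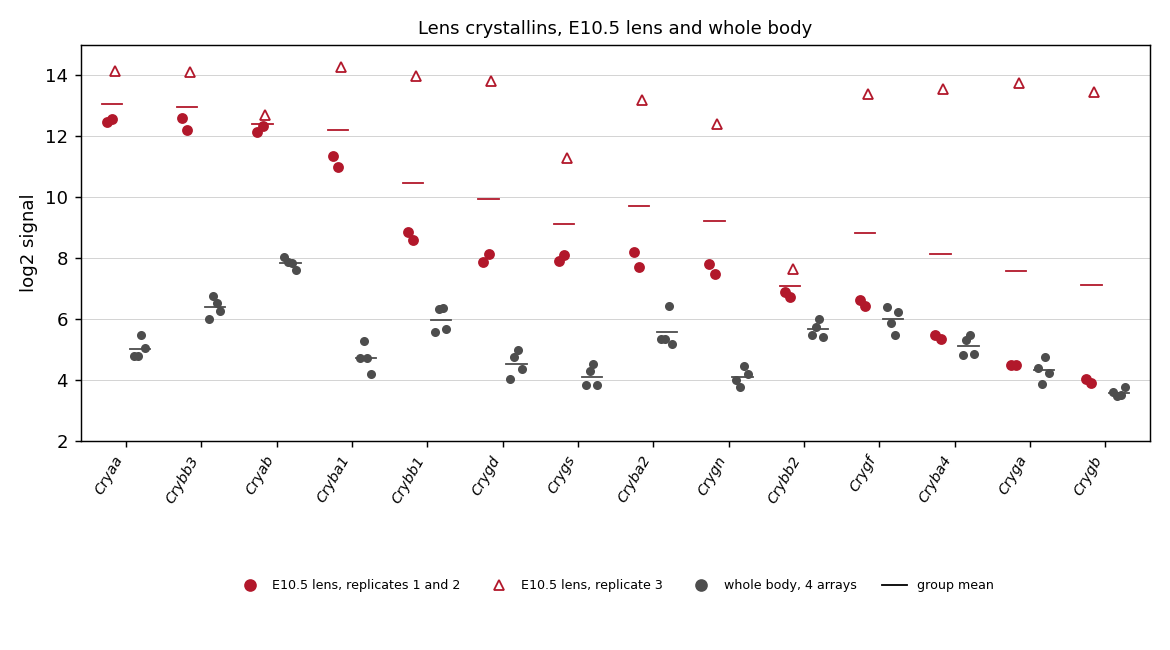
Log2 signal of the 14 tested crystallins on each array, with E10.5 lens at the left of each gene (filled circles replicates 1 and 2, open triangle replicate 3), the 4 whole-body arrays at the right and lines at the group means. Cryaa, Crybb3, Cryab and Cryba1 are high in all 3 lens arrays, while Cryga and Crygb are at 4.50 and below in replicates 1 and 2 and at 13.73 and 13.46 in replicate 3.

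Stretches of 250 bases before the start are shown for 3 crystallins that were high in every lens array, because Maf is known to bind crystallin promoters. The letters TGCTGA, the core of the Maf recognition element, or TCAGCA on the other strand, are in capitals and were searched on both strands. Sequences and positions are from RefSeq (GRCm38.p6), written 5′ to 3′ on the strand of the gene. Cryaa lies on the plus strand of chromosome 17 (gene chr17:31677931-31681730), and its stretch is chr17:31677681-31677930. Cryba1 lies on the minus strand of chromosome 11 (gene chr11:77718614-77725293), and its stretch is chr11:77725294-77725543. Crybb3 lies on the minus strand of chromosome 5 (gene chr5:113075839-113082236), and its stretch, chr5:113081585-113081834, is before the start the table gives and lies inside the gene's outer bounds.
Cryaa: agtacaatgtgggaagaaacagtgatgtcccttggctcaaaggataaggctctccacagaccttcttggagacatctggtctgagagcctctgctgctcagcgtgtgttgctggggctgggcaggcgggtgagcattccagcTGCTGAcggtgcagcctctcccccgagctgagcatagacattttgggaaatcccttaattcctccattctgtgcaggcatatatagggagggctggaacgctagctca
Cryba1: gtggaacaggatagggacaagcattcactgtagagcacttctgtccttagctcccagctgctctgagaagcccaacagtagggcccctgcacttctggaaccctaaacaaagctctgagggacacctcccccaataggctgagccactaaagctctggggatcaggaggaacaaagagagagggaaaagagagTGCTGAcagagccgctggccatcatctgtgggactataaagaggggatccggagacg
Crybb3: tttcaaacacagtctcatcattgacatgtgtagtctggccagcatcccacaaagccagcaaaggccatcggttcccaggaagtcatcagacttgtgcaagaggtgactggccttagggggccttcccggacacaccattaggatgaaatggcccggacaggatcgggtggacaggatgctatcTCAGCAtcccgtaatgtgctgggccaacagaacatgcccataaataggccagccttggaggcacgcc
Counted from the start, the capitals begin at base -108 in Cryaa, at -57 in Cryba1 and, on the other strand, at -67 in Crybb3. Such letters were found in the stretches of 9 of the 13 crystallins with an entry (69.2%) and in 7 of the 9 called crystallins with an entry, against 18% of all 27025 genes with an entry. They were in 5 of 12 fibre genes, 2 of 16 placode and vesicle transcription factors and 2 of 13 surface ectoderm genes with an entry. TATAAA, the letters of a TATA box, was in 3 of the 13 crystallin stretches and in 14.3% of all genes with an entry. A match describes the letters and is not evidence of binding.

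Genes of the fibre membrane and cytoskeleton were also higher in E10.5 lens. Of 13 tested genes 10 were called higher and 2 lower, both with replicate 3 (median 2.47) and without it (median 1.31). These are 76.9% and 15.4%, against 13.5% and 19.1% over all tested genes. Capn3, a calpain protease with lens splice forms, averaged 10.81 ± 0.33 in lens, against 5.60 ± 0.42 in body (SD, n = 3 and 4), a difference of 5.21 ± 0.27 (SE, adjusted p = 1.2e-11). Gja3, the connexin 46 of fibre gap junctions, had 8.54, 8.95 and 10.87 in lens, against 3.99, 3.67, 4.09 and 3.94 in body (5.53 ± 0.39, adjusted p = 1.1e-09). Mip, the fibre water channel aquaporin 0, had 8.20, 8.36 and 10.55 in lens, against 4.32, 4.69, 4.69 and 4.82 in body (4.40 ± 0.38, adjusted p = 1.5e-08). None of the 3 overlapped body in any lens array.

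Crim1, a membrane protein of the lens epithelium, and Tdrd7, an RNA granule protein whose loss causes cataract in mice, were higher by 4.04 ± 0.27 (adjusted p = 3.7e-10) and 3.01 ± 0.30 (adjusted p = 1.1e-07). The beaded filament genes, whose products form the fibre-specific intermediate filament, were near the filter level in lens replicates 1 and 2. Bfsp2 had 6.35, 6.25 and 6.88 in lens, against 5.30, 5.50, 5.58 and 5.37 in body (1.06 ± 0.21, adjusted p = 0.00062). Bfsp1 had 5.51, 5.44 and 10.66 in lens, against 4.29, 4.95, 5.11 and 4.58 in body, with a difference of 0.74 (adjusted p = 0.0226) without replicate 3. Lim2, a fibre membrane protein, had 7.73, 7.32 and 12.15, against 6.29, 5.95, 6.25 and 6.40 in body (1.31 without replicate 3, adjusted p = 0.00195). The 2 members called lower were Tmod1, a cap of actin filaments that muscle and red cells also use, at 5.79, 5.86 and 6.41 in lens, against 7.54, 7.82, 7.84 and 7.50 in body (-1.66 ± 0.22, adjusted p = 6.6e-06), and Fabp5, a fatty acid carrier (-1.0 ± 0.15, adjusted p = 3.1e-05).

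The genes in which replicate 3 lay farthest above replicates 1 and 2 are given here as a description with no test. The 31 genes above that mean by more than 2 log2 units included Cryga, Crygb, Cryba4, Crygf, Cryba2, Crybb1, Bfsp1 and Lim2. Gje1, a connexin-like lens gene, was at 9.68 in replicate 3, against 4.03 and 5.47 in replicates 1 and 2. Pla2g7, a secreted phospholipase, was at 9.35, against 5.22 and 5.63, and Gcg, the glucagon precursor, at 6.59, against 3.64 and 3.58. The summed linear signal of the 14 crystallins was 157215 in replicate 3 and as low as 19481 in the other lens arrays, with 54585 to 98451 in E11.5 lens, 183624 to 197442 in E12.5 lens and 644 to 827 in body. No gene was lower in replicate 3 by more than 2 units. Among those lower by more than 1 unit were Cldn7, a claudin of epithelial tight junctions, at 6.46, against 7.78 and 7.39, Spink1, a secreted trypsin inhibitor, at 5.79, against 7.29 and 8.03, Tgm2, a transglutaminase, at 7.32, against 8.71 and 8.62, and Cxcl14, an epithelial chemokine, at 8.57, against 10.01 and 9.50. Replicate 3 also had the lowest sum of the surface ectoderm list, at 8673 of a range of 8673 to 11103 over the E10.5 lens arrays. It had the highest sums of the mesenchyme (6876) and erythroid (34878) lists. The same held for other lists, such as adhesion (16718), basement membrane (26645) and Wnt signalling (21610). Its sums were the lowest for lists such as cell division (36416) and macrophages (2285). The part of stage, of other tissue and of processing in this array was not tested.

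**Figure D3:**
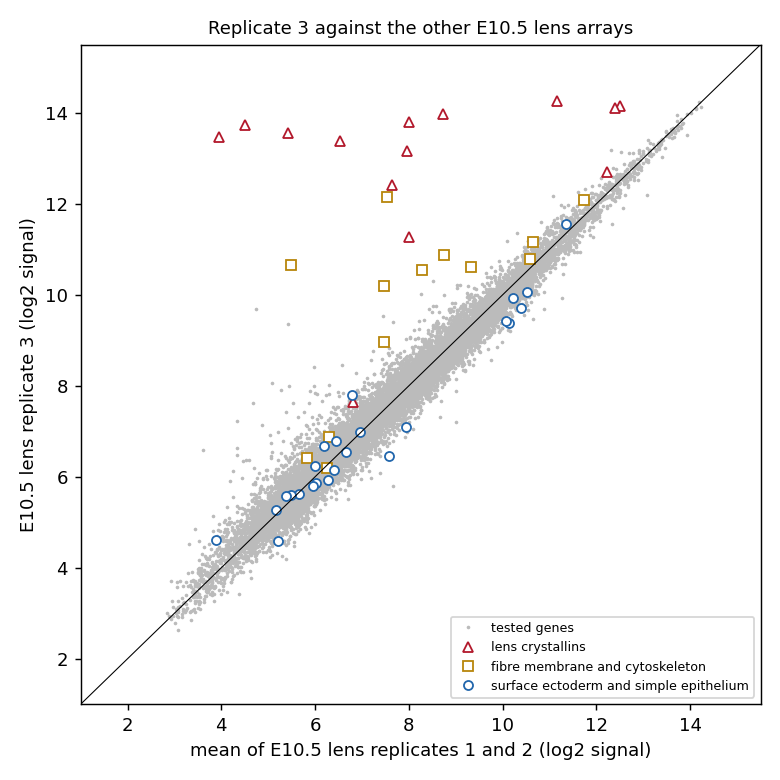
Log2 signal of the 13320 tested genes in E10.5 lens replicate 3 (vertical axis) against the mean of replicates 1 and 2 (horizontal axis), with the line of equality and 3 gene lists marked. Crystallins and several fibre genes lie far above the line, Cryga at 13.73 against 4.50 and 4.49, while surface ectoderm genes lie on both sides of it, Cldn7 at 6.46 against 7.78 and 7.39.

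The transcription factors of the placode, pit and vesicle were mostly higher in lens than body, with or without replicate 3. Of 20 tested factors 14 were called higher and 3 lower with replicate 3 and without it, with medians of 2.03 and 1.94. These are 70% and 15%, against 13.5% and 19.1% over all tested genes. Pax6, the paired and homeodomain factor required for lens formation, had 11.92, 12.06 and 11.74 in lens, against 7.39, 7.51, 7.39 and 7.15 in body (4.54 ± 0.34, adjusted p = 2.5e-09). Six3, a homeodomain factor that acts upstream of Pax6 and Sox2 in the lens ectoderm, had 10.79, 10.52 and 9.99 in lens, against 5.99, 5.88, 6.87 and 6.10 in body (4.23 ± 0.28, adjusted p = 3.7e-10). Sox2 had 10.68, 10.89 and 10.54 in lens, against 10.09, 10.16, 9.22 and 10.18 in body (0.79 ± 0.25, adjusted p = 0.017). The lens arrays were above the body arrays for all 3, but the neural tube also makes Sox2, and its body level was within 1 log2 unit of lens.

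Factors of the vesicle and its fibre cells were on at this stage. Maf, an activator of crystallin genes and of fibre elongation, had 12.60, 12.78 and 12.85 in lens, against 9.35, 9.19, 8.95 and 9.50 in body (3.5 ± 0.14, adjusted p = 4.4e-13). Prox1, the homeodomain factor needed for fibre elongation and cell cycle exit, had 9.07, 9.06 and 9.42 in lens, against 4.93, 4.89, 4.79 and 5.22 in body (4.23 ± 0.18, adjusted p = 5.2e-13). Foxe3, the forkhead factor of the lens epithelium, had 10.28, 9.62 and 10.45 in lens, against 5.33, 6.61, 6.26 and 5.56 in body (4.18 ± 0.30, adjusted p = 1.3e-09). All were apart from body by more than the whole range within either group. Pitx3, mutated in the aphakia mouse that lacks a lens, had 10.15, 10.08 and 10.74 in lens, against 6.28, 6.28, 6.24 and 6.27 in body (4.05 ± 0.17, adjusted p = 6.1e-13). Sox1, which activates gamma crystallins in fibres, had 8.51, 8.67 and 9.75, against 6.30, 5.35, 5.83 and 6.60 (2.96 ± 0.28, adjusted p = 7.9e-08). Both were highest in replicate 3.

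Mab21l1, a gene required for placode invagination, was higher by 3.39 ± 0.21 and Tfap2a, an AP-2 factor of the surface ectoderm and lens epithelium, by 2.57 ± 0.16, with 10.19, 10.48 and 10.43 in lens, against 7.89, 7.88, 7.51 and 7.89 in body. Gata3 (2.05), Mafg (2.0), Eya1 (1.08) and Zeb2 (1.08, and -0.02 with another probe set) completed the higher factors. Probe sets differ in response, so levels are not compared between genes. The 3 factors called lower were Tfap2b (-2.21 ± 0.17, adjusted p = 2.4e-09), Sox11 (-1.42 ± 0.12, adjusted p = 1.1e-08) and Meis2 (-1.73 ± 0.32, adjusted p = 0.000264), which body tissues such as neural crest, neurons and limb also make. For Meis2 another probe set gave 2.03, so its direction depends on the probe set. Meis1 (0.05), Six4 (-0.50, adjusted p = 0.0501) and Hsf4 (0.33), the heat shock factor of later fibre cells with 4.49, 4.60 and 5.16 in lens, did not pass the test.

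**Figure D4:**
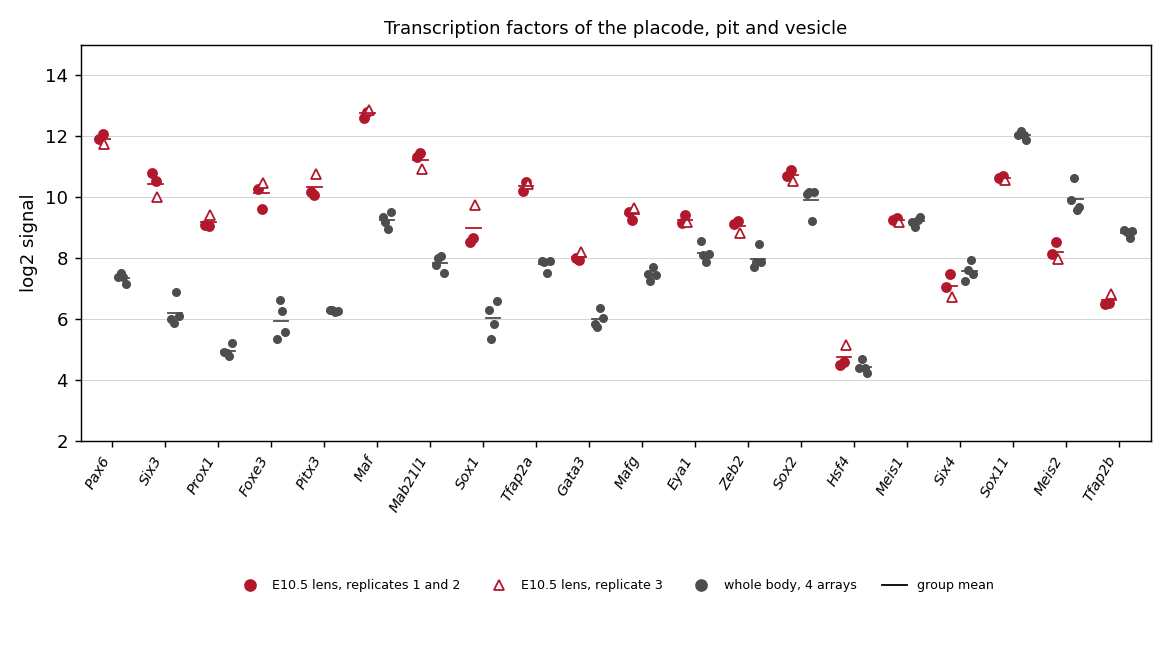
Log2 signal of 20 transcription factors on each array, ordered by the difference between E10.5 lens (left of each gene, open triangle replicate 3) and whole body (right). Pax6, Six3, Prox1, Foxe3, Pitx3 and Maf show the lens arrays together and well above body, and Sox11, Meis2 and Tfap2b show them below.

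Members of the surface ectoderm list were called in both directions. Of 24 tested genes 8 were called higher and 8 lower (median 0.13), and 9 and 8 without replicate 3, when Cldn7 was added. Each direction held 33.3%, against 13.5% higher and 19.1% lower over all tested genes. Cdh1, the E-cadherin of epithelial junctions, had 11.13, 11.56 and 11.56 in lens, against 7.67, 7.48, 7.22 and 7.23 in body (4.02 ± 0.16, adjusted p = 4.6e-13). Epcam, an epithelial adhesion molecule, had 10.25, 10.21 and 9.92, against 8.25, 8.26, 8.06 and 8.24 (1.93 ± 0.15, adjusted p = 2.5e-09), although another of its probe sets gave -0.11. Desmoplakin (Dsp), the anchor of keratins at desmosomes, had 9.87, 10.41 and 9.38, against 8.73, 8.09, 7.94 and 8.14 (1.66 ± 0.22, adjusted p = 4.7e-06). For all 3 the lens arrays lay above the body arrays.

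The keratin pair of simple epithelia moved alike, with Krt8 at 10.25, 10.56 and 9.71 in lens, against 8.78, 8.40, 8.82 and 8.66 in body (1.5 ± 0.21, adjusted p = 9.3e-06), and Krt18 higher by 1.48 ± 0.22 (adjusted p = 1.9e-05). Esrp1, a splicing regulator of epithelia, and the protease inhibitors Spint1 and Spint2 were higher by 1.12, 0.96 and 1.66. The 8 lower genes included keratins of stratified epithelium and Krt19, a keratin of simple epithelia. Krt19 had 5.49, 4.91 and 4.58 in lens, against 6.27, 6.23, 6.78 and 6.10 in body (-1.35 ± 0.26, adjusted p = 0.000369). Krt14 had 5.67, 5.32 and 5.60 in lens, against 7.94, 7.95, 8.23 and 7.56 in body (-2.39 ± 0.20, adjusted p = 1.6e-08). Its partner Krt5 was lower by 1.99 in lens than in body (-1.99 ± 0.27), Krt15 by 2.07 (-2.07 ± 0.31) and Trp63, the p63 factor of basal epidermis, had 5.26, 5.05 and 5.26, against 6.75, 6.26, 6.05 and 6.49 (-1.20 ± 0.18, adjusted p = 2.3e-05). Lens levels of Krt14, Trp63, Krt19 and Grhl3 were around or under the filter level of 5.46. The body holds skin and other epithelia, whose share of its RNA was not measured.

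Genes of the invagination machinery were called in both directions. Shroom3 acts at the apical junctions, where myosin II contraction wedges the cells, and filopodia tether the lens pit to the optic cup. Of 24 tested genes 7 were called higher and 6 lower, 29.2% and 25% against 13.5% and 19.1% of all tested genes, with a median of 0.02, and 5 and 5 without replicate 3, when Tjp1 (adjusted p = 0.124), Arhgef11 (adjusted p = 0.0508) and Myh10 (adjusted p = 0.06) were no longer called. Shroom3 had 8.63, 8.93 and 9.15 in lens, against 8.03, 8.37, 7.84 and 8.25 in body (0.78 ± 0.16, adjusted p = 0.000704). Its relatives Shroom2 (-0.73 ± 0.25, adjusted p = 0.0289) and Shroom4 (-0.95 ± 0.18, adjusted p = 0.000347) were lower. Thus the 3 tested Shroom genes did not move together.

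The non-muscle myosin heavy chain Myh9 had 11.62, 11.43 and 10.95 in lens, against 9.87, 10.81, 10.55 and 10.21 in body (0.97 ± 0.25, adjusted p = 0.00515). The polarity genes Prkci, an atypical protein kinase C, and Llgl2 were higher by 1.21 ± 0.12 (adjusted p = 7.2e-08) and 1.39 ± 0.20 (adjusted p = 2.1e-05). Vasp, an actin filament elongation factor, was higher by 0.78 ± 0.21 (adjusted p = 0.0074). Myl9, a myosin light chain abundant in smooth muscle, had 8.28, 7.92 and 8.19, against 10.53, 10.48, 10.79 and 10.72 in body (-2.5 ± 0.23, adjusted p = 3.1e-08). Trio, a guanine nucleotide exchange factor, was lower by 0.70 (-0.70 ± 0.16, adjusted p = 0.00156). Enah, a filopodial relative of Vasp, gave -0.48 with its main probe set and 2.12 with another, so its direction depends on the probe set. The count of lower genes above includes Enah by its main probe set. The small GTPases Rhoa (0.00), Rac1 (-0.04) and Cdc42 (-0.31) and the kinase Rock1 (0.02) did not pass the test.

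Adhesion genes leaned higher, with 9 of 19 tested called higher and 2 lower (8 and 2 without replicate 3, when Itgav had adjusted p = 0.0958). With all arrays 47.4% were called higher, against 13.5% over all tested genes. The share called lower was under the 19.1% over all tested genes. Cdh2, the N-cadherin of lens and neural cells, had 11.64, 11.57 and 12.26 in lens, against 11.04, 10.69, 9.96 and 11.25 in body (1.09 ± 0.24, adjusted p = 0.00133). Itga3, a laminin-binding integrin chain, had 9.63, 9.47 and 9.40, against 7.03, 7.24, 7.25 and 7.36 (2.28 ± 0.22, adjusted p = 8.9e-08). Both cadherins of the lens vesicle, Cdh1 and Cdh2, were therefore above body in all lens arrays. The receptor Epha2, linked to human and mouse cataract, was higher by 1.63 ± 0.23 (adjusted p = 1.4e-05), Efnb2 by 1.53 ± 0.20 (adjusted p = 5e-06) and Efna5 by 0.79 ± 0.20 (adjusted p = 0.00477). Nectin3, a protein of cell junctions, was higher by 0.95 ± 0.13 (adjusted p = 9e-06). Epha7 (-1.48 ± 0.15) and Ncam1 (-1.04 ± 0.21), both strongly made by neural tissue, were lower, and 1 further probe set of Ncam1 gave 0.20.

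The lens capsule is the thick basement membrane that the vesicle lays down around itself. Of 18 tested basement membrane genes 10 were called higher and 4 lower (9 and 4 without replicate 3, when Sparc had adjusted p = 0.063). The 22.2% called lower is near the 19.1% over all tested genes, and 55.6% were called higher, against 13.5%. The paired collagen IV chains Col4a5 and Col4a6 were higher by 2.54 ± 0.24 (adjusted p = 6.7e-08) and 2.43 ± 0.18 (adjusted p = 2.5e-09), and Col4a6 had 9.03, 9.10 and 9.20 in lens, against 6.73, 6.26, 6.89 and 6.86 in body. Col4a1 had 11.86, 11.65 and 12.33 in lens, against 10.67, 10.30, 10.91 and 11.18 in body (1.19 ± 0.18, adjusted p = 4.2e-05). Each of these chains was above body in every lens array. Among laminin chains Lama1 had 9.88, 9.53 and 9.38, against 6.49, 6.69, 7.20 and 6.68 (2.83 ± 0.27, adjusted p = 8.2e-08), Lamb1 was higher by 1.61 ± 0.20 and Lamc1 by 1.46 ± 0.22, which together form a laminin of early basement membranes. Nid1, which links laminin to collagen IV, was higher by 2.20 ± 0.22 (adjusted p = 1e-07), while its relative Nid2 was lower (-0.94 ± 0.16, adjusted p = 7.8e-05). Lama4, a chain of vessel basement membranes, was lower (-1.33 ± 0.15), as was Smoc1 (-1.91 ± 0.16).

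Genes read out from FGF signalling, which drives lens induction and fibre differentiation, were called in both directions. Of 18 tested genes 5 were called higher and 3 lower (median 0.03), and 4 and 3 without replicate 3. The 16.7% called lower is near the 19.1% over all tested genes, and 27.8% were called higher, against 13.5%. Etv5, an ETS factor induced by FGF, had 10.06, 9.25 and 9.99 in lens, against 7.47, 7.17, 7.11 and 8.21 in body (2.28 ± 0.31, adjusted p = 7.9e-06). The feedback inhibitors Dusp6, an ERK phosphatase, and Spry2 were higher by 0.98 ± 0.24 (adjusted p = 0.00298) and 0.90 ± 0.21 (adjusted p = 0.00251), and Etv4 by 0.59 ± 0.22 (adjusted p = 0.0426, and 0.123 without replicate 3). Another inhibitor, Il17rd, had 6.14, 6.92 and 6.18, against 8.43, 8.56, 8.65 and 8.47 (-2.11 ± 0.19, adjusted p = 2.3e-08). The inducible genes thus did not share 1 direction. Of the receptors, Fgfr2 was higher by 0.71 ± 0.18 (adjusted p = 0.00524), and Fgfr3 had 6.45, 6.69 and 8.47, against 8.81, 8.02, 8.26 and 8.72 (-1.25 ± 0.44, adjusted p = 0.0367), with replicate 3 inside the body range and a difference of -1.89 (adjusted p = 0.00141) without it.

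For BMP signalling, which acts with FGF in placode formation, 3 of 23 tested genes were called higher and 10 lower (median -0.36). The 13% called higher is near the 13.5% over all tested genes, and 43.5% were called lower, against 19.1% over all. Id3, a helix-loop-helix inhibitor induced by BMP, had 12, 11.81 and 11.78 in lens, against 10.90, 11.20, 10.82 and 10.92 in body (0.90 ± 0.18, adjusted p = 0.000503). The ligand Bmp7, needed for lens placode formation, was higher by 0.62 ± 0.14 (adjusted p = 0.00131) and the receptor Acvr2b by 0.89 ± 0.22 (adjusted p = 0.00358). Bmp4, which comes to the lens ectoderm from the optic vesicle, had 5.97, 6.23 and 5.87, against 8.49, 8.50, 8.87 and 8.30 (-2.52 ± 0.19, adjusted p = 3.2e-09). Id4 (-4.19 ± 0.45) and Msx1 (-2.89 ± 0.27) were lower as well, so BMP-inducible genes of the list pointed both ways.

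In the Wnt list 4 of 24 tested genes were called higher and 10 lower (median -0.25), and 4 and 9 without replicate 3, when Nkd1 had adjusted p = 0.0685. The 16.7% called higher is near the 13.5% over all tested genes, while 41.7% were called lower, against 19.1%. Secreted antagonists and their relatives were found among the higher and among the lower genes. Sfrp2 had 13.60, 13.47 and 13.54 in lens, against 10.29, 10.32, 10.63 and 10.99 in body (2.98 ± 0.16, adjusted p = 1.1e-11), and Dkk3 10.69, 10.79 and 10.93, against 6.96, 7.08, 7.60 and 6.93 (3.66 ± 0.18, adjusted p = 5.6e-12). Dkk1 was higher by 1.20 ± 0.20 and Sfrp1 by 0.85 ± 0.20. Other antagonists were lower, Frzb by 3.28 (-3.28 ± 0.19) and Wif1 by 3.08 (-3.08 ± 0.21), both under the filter level in lens. Axin2 and Lef1, which canonical Wnt signalling induces in many tissues, were also lower. Axin2 had 7.38, 7.06 and 7.74, against 8.22, 8.12, 8.06 and 8.69 (-0.88 ± 0.20, adjusted p = 0.00162), and Lef1 6.37, 6.35 and 7.16, against 8.06, 8.01, 7.62 and 8.07 (-1.31 ± 0.18, adjusted p = 1.2e-05). Wnt5a, a ligand of mesenchyme, was lower by 3.45 (-3.45 ± 0.39).

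In the Notch list 3 of 20 tested genes were called higher, 10 lower and 7 did not pass the test (median -0.65). The share called higher was 15%, near the 13.5% over all tested genes, and the share called lower 50%, against 19.1%. Jag1, the Notch ligand of the early lens, had 11.49, 11.43 and 11.47 in lens, against 8.76, 9.26, 8.81 and 8.76 in body (2.57 ± 0.15, adjusted p = 6.5e-11). The targets Hes1 and Hey1 were higher by 1.04 ± 0.19 (adjusted p = 0.000294) and 0.50 ± 0.12 (adjusted p = 0.00343). The ligands of neural and somite cells Dll1 and Dll3 were lower (-2.81 ± 0.22 and -3.07 ± 0.17), as were the neural target Hes5 (-2.08 ± 0.29), the heart target Hey2 (-2.28 ± 0.18) and the imprinted gene Dlk1, with 5.73, 5.13 and 5.77 in lens, against 10.91, 10.67, 11.28 and 11.65 in body. The 3 higher genes are a ligand and 2 targets, and no receptor was called higher.

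Retinoic acid genes ranged from 6.90 to -5.52 in their difference, with 4 of 17 tested called higher and 10 lower (median -0.75). Without replicate 3 the counts were 4 and 11, when the receptor Rarb was added (-0.73, adjusted p = 0.0101). With all arrays 23.5% were called higher and 58.8% lower, against 13.5% and 19.1% over all tested genes. Aldh1a1, a retinaldehyde dehydrogenase of the lens and dorsal retina, had 12.32, 12.55 and 12.56 in lens, against 5.41, 5.55, 5.81 and 5.54 in body (6.90 ± 0.18, adjusted p = 1.4e-15). Aldh1a7, its close copy in rodents, was higher by 6.69 ± 0.28, and reads of the pair by their probe sets cannot be fully separated. Aldh1a3, the enzyme of the ventral eye and of surface ectoderm, had 9.55, 9.92 and 9.12, against 5.18, 5.38, 4.97 and 4.88 (4.43 ± 0.25, adjusted p = 2.7e-11). Lens was thus high for 2 synthesis enzymes, while Aldh1a2, the enzyme of trunk mesoderm, had 4.38, 5.19 and 4.60, against 8.86, 8.56, 9.03 and 9.19 (-4.19 ± 0.29, adjusted p = 9.2e-10). Stra6, the cell-surface receptor for retinol-binding protein, was higher by 3.44 ± 0.22 (adjusted p = 1.9e-10) and Cyp26a1, which degrades retinoic acid, by 2.36 ± 0.18 (adjusted p = 3.3e-09). The carrier Rbp4, made by liver and yolk sac, was lower (-5.52 ± 0.23), as were the receptors Rarg (-1.11 ± 0.17) and Rxra (-1.44 ± 0.23). Crabp1, a retinoic acid binding protein of neural crest, had 10.72, 10.61 and 10.04, against 11.28, 11.13, 11.13 and 11.29, and did not pass the test (-0.75, adjusted p = 0.114).

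Among the 15 largest rises that were apart from body with and without replicate 3, 6 were crystallins (Cryaa, Cryba1, Crybb3, Crygd, Crygn and Crygs), and Gja3, Capn3, Aldh1a1 and Aldh1a7 are described above. The remaining genes were Trpm3, Nupr1, Mgarp, Csn3 and the noncoding RNA Xist. Trpm3, a cation channel gene active in lens, had 10.55, 10.54 and 10.72 in lens, against 4.54, 4.05, 4.61 and 4.27 in body (6.23 ± 0.20, adjusted p = 1.9e-14). The gene (chr19:22137797-22995410) holds the microRNA miR-204, known to act in lens and retina, on its own strand, and the mature sequence is shown because it comes from the same locus, with the seed, bases 2 to 8, in capitals (chr19:22750610-22750631, plus strand, RefSeq GRCm38.p6).
mmu-miR-204-5p: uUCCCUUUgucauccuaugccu
The array values are for the host gene, and the microRNA itself was not analysed here.

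Nupr1, a stress-induced nuclear protein, had 10.48, 10.75 and 10.52 in lens, against 4.48, 4.64, 4.72 and 4.29 in body (6.05 ± 0.17, adjusted p = 5.8e-15). Mgarp, a mitochondrial membrane protein, had 12.31, 12.06 and 12.15, against 5.84, 6.78, 6.54 and 5.97 (5.89 ± 0.20, adjusted p = 2.9e-14). Csn3, the milk protein kappa casein, had 11.36, 11.19 and 9.92, against 5.53, 4.75, 5.04 and 5.29 (5.67 ± 0.28, adjusted p = 4.4e-12). All lens arrays were more than 4 log2 units above all body arrays for these genes, and Csn3 was lowest in replicate 3. Xist, which is made from the inactive X chromosome, had 10.76, 11.12 and 11.49 in lens, against 5.70, 6.26, 6.12 and 6.02 in body (5.10 ± 1.00, adjusted p = 0.000482). The Y-linked genes Eif2s3y, Uty and Kdm5d, chosen after their values were seen, differed by -0.82 (adjusted p = 0.481), -0.71 (adjusted p = 0.0225) and -0.91 (adjusted p = 0.339). In the whole-body arrays of the tooth series Xist averaged 13.19, against 6.02 in those of the lens series. The labels give no sex of the embryos. Among the 7 arrays the sex make-up of lens and body samples cannot be told apart from the tissue for these genes, and its part was not tested.

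Of the cell division genes 4 of 19 tested were called higher and 1 lower in E10.5 lens (median 0.13), with 3 and 1 without replicate 3. The shares were 21.1% and 5.26%, against 13.5% and 19.1% over all tested genes. Within the low control set, which rests on lens replicate 3 alone, the median was -0.02. Mki67, a marker of cycling cells, had 11.54, 11.63 and 10.94 in lens, against 11.31, 11.32, 11.62 and 11.28 in body and did not pass the test (-0.01, adjusted p = 0.977). Cenpa, the centromere histone, was higher by 0.45 ± 0.13 (adjusted p = 0.0127), and Plk1 by 0.46 ± 0.17 (adjusted p = 0.0455, and 0.0665 without replicate 3). Of 13 cell cycle exit genes 1 was called higher and 6 lower, 7.69% and 46.2% against 13.5% and 19.1% of all tested genes. Cdkn1c, the p57 inhibitor of fibre cell cycle exit, had 11.36, 11.34 and 11.61, against 12.17, 12.28, 12.44 and 12.32 (-0.87 ± 0.16, adjusted p = 0.000313), and the cyclin gene Ccnd1 was higher by 0.56 ± 0.13 (adjusted p = 0.00228).

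Markers of other tissues were mostly far lower in lens. All 15 tested muscle genes, 14 neuron genes, 11 liver and yolk sac genes and 11 erythroid genes were called lower, as were 20 of 21 Hox genes (18 without replicate 3) and 13 of 15 mesenchyme genes. Over all tested genes 19.1% were called lower. Afp, the alpha-fetoprotein of yolk sac and liver, had 3.02, 3.14 and 2.91 in lens, against 12.80, 13.14, 12.92 and 12.86 in body (-9.91 ± 0.35, adjusted p = 7.1e-14). Actc1, the cardiac actin, had 4.65, 4.66 and 4.86, against 12.89, 12.54, 12.88 and 13.07 (-8.12 ± 0.20), and Fabp7, a lipid carrier of radial glia, 4.02, 4.54 and 4.19, against 11.97, 11.70, 11.79 and 11.94 (-7.60 ± 0.48). These lens levels lay under the filter level, which leaves their size uncertain. Summed linear signal was 494 to 545 in lens, against 14769 to 16555 in body, for muscle and 461 to 525, against 14010 to 15998, for neurons.

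Some other cell types left a measurable signal in the lens samples. Embryonic globins were high in both, with Hbb-y at 13.93, 13.49 and 13.95 in lens, against 14.21, 14.46, 14.34 and 14.24 in body (-0.53 ± 0.17, adjusted p = 0.0195), and the erythroid sum was 20209 to 34878 in lens, against 50032 to 56317. Collagens of mesenchyme were present at reduced levels, with Col3a1 at 8.43, 7.99 and 9.43, against 12.91, 12.84, 12.87 and 13.14 (-4.33 ± 0.23). Pdgfra, a growth factor receptor that lens epithelium also makes, was the mesenchyme list's higher gene (0.74 ± 0.16). Macrophage genes leaned higher, with 8 of 14 tested called higher and 2 lower (7 and 2 without replicate 3, when Csf1r had adjusted p = 0.0643). The shares were 57.1% and 14.3%, against 13.5% and 19.1% over all tested genes. The summed signal of the list was 2285 to 2606 in lens, against 1474 to 1901 in body. Cx3cr1, a chemokine receptor of microglia and macrophages, had 7.24, 7.44 and 6.94, against 5.96, 5.58, 5.83 and 5.68 (1.44 ± 0.22, adjusted p = 2.9e-05), while the mannose receptor Mrc1 was lower (-1.59 ± 0.21, adjusted p = 6.2e-06). Their part in other results was not tested.

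Genes of the neighbours of the lens in the eye were called in both directions, and the retinal list, but not the pigment list, summed below body. Of 10 tested retinal progenitor genes 2 were called higher and 5 lower, 20% and 50% against 13.5% and 19.1% of all tested genes. The retinal list summed to 644 to 672 in lens, against 1425 to 1590 in body. Rax, the retinal homeodomain factor, had 5.72, 5.57 and 5.41, against 4.77, 4.89, 5.36 and 4.60 (0.66 ± 0.19, adjusted p = 0.0097), and Six6 6.14, 6.0 and 6.26, against 4.56, 4.34, 4.0 and 4.61 (1.75 ± 0.26, adjusted p = 2.1e-05). Lhx2, made by optic vesicle and forebrain, was lower (-2.27 ± 0.23). Of 9 pigment genes 4 were called higher, including Mitf (1.15 ± 0.25, adjusted p = 0.00113) and Pmel (0.78 ± 0.16, adjusted p = 0.000705), and 2 lower, including Otx2 (-1.23 ± 0.18), with 3 and 2 without replicate 3, when Dct had adjusted p = 0.0697. The 22.2% called lower is near the 19.1% over all tested genes, and 44.4% were called higher, against 13.5%. Sums were 851 to 970 in lens, against 842 to 951. Endothelial genes had 4 of 14 called lower, 28.6% against 19.1% of all tested genes, and none higher, with 5 lower without replicate 3 and 1 in the low control set, with 2157 to 2650 in lens, against 2721 to 2852. Of the tested immediate early and heat shock genes, 1 of 14 was called higher, Egr1 (0.81 ± 0.15), and 4 lower, or 3 without replicate 3. With all arrays the shares were 7.14% and 28.6%, against 13.5% and 19.1% over all tested genes. The E10.5 lens samples thus matched the tissue of their label by the lens factors and crystallins. Red cell, macrophage and mesenchyme transcripts were also present, and some retinal and pigment genes were above body. These genes do not settle the stage, and the crystallin sum of replicate 3, 157215, was above the 54585 to 98451 of E11.5 lens.

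To place the E10.5 lens among the lens stages it was set against the 6 arrays of E11.5 and E12.5 lens. Against their mean 1388 genes were called higher at E10.5, 10.4% of those tested, and 883 lower, 6.63%. These counts leaned on single arrays: without E10.5 replicate 2 they were 804 and 483, without replicate 1 934 and 523, and without replicate 3 1364 (10.2%) and 982 (7.37%). In arrays of high control signal 1462 genes were higher and 742 lower, and in those of low signal 418 and 267. All E10.5 arrays lay above all later lens arrays in 8.84% of genes and below them in 4.71%. Of the called genes 61.1% were higher at E10.5 as deposited and 50.7% after centring. Of the genes higher than body, 404 were also higher than later lens, 189 were lower than later lens and 1204 were not called against it. The comparisons share the E10.5 arrays, so these counts are not independent.

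Many surface ectoderm genes were higher at E10.5 than in later lens. Of 24 tested, 13 were higher at E10.5 than later and none lower, 12 and none without replicate 3. With all arrays 54.2% were called higher, against 10.4% over all tested genes. Dsp averaged 9.89, 6.20 and 4.41 in E10.5, E11.5 and E12.5 lens, against 8.22 in body (4.58 above later lens, adjusted p = 2.7e-11). Epcam averaged 10.13, 7.12 and 5.36 at the 3 stages, against 8.20 in body (3.89, adjusted p = 7.9e-13). Krt8 averaged 10.17, 6.94 and 5.80, against 8.67 in body (3.80, adjusted p = 1.6e-10). The E10.5 lens arrays were above, and the E12.5 lens arrays below, the same body arrays for all 3. Cdh1, in contrast, averaged 11.42, 10.76 and 10.38, against 7.40 in body, a smaller difference from later lens of 0.85 (adjusted p = 0.000563). Csn3 averaged 10.82, 6.02 and 5.69 (4.97, adjusted p = 1.6e-10). The matrix genes Vcan, versican, Has2, a hyaluronan synthase, and Tnc, tenascin C, were higher at E10.5 than later by 3.82 ± 0.20, 3.57 ± 0.18 and 3.52 ± 0.22. Cxcl14 was higher by 4.27 ± 0.52 and Tgm2 by 3.06 ± 0.26.

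Retinoic acid and early factors also differed by stage. Aldh1a3 was higher at E10.5 than later by 2.85 (adjusted p = 1e-07) and Crabp1 by 2.90 (adjusted p = 5.9e-06), while Aldh1a1 was lower (-0.69, adjusted p = 0.00564). Sox2 averaged 10.71, 8.95 and 7.93 at the 3 stages (2.26 above later lens, adjusted p = 1.6e-06), and Sox11 and Tfap2a were higher at E10.5 by 1.39 and 1.09. Pax6 (0.49, adjusted p = 0.329), Six3 (0.52, adjusted p = 0.193), Maf (-0.08, adjusted p = 0.735), Foxe3 (-0.21, adjusted p = 0.684) and Pitx3 (-0.30, adjusted p = 0.212) did not pass the test between E10.5 and later lens, although Pitx3 did without replicate 3 (-0.51, adjusted p = 0.0334). Prox1 (-0.97, adjusted p = 0.000292) and Sox1 (-1.12, adjusted p = 0.0053) were lower at E10.5. Of 19 cell division genes 17 were higher at E10.5 than later and none lower (median 0.89), among them Bub1, a mitotic checkpoint kinase, at 10.57, 9.91 and 8.87 over the stages (1.18, adjusted p = 3e-06). The 17 genes are 89.5%, against 10.4% called higher over all tested genes.

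Fibre genes ran the other way, with 10 of 13 lower at E10.5 than later and 1 higher, and 11 and none without replicate 3. With all arrays the shares were 76.9% lower and 7.69% higher, against 6.63% and 10.4% over all tested genes. In the low control set, where replicate 3 is the E10.5 lens, 4 were lower and 1 higher, with a median of -0.85 in place of -2.02. Capn3 averaged 10.81, 11.94 and 13.73 (-2.02, adjusted p = 1.8e-05), and Bfsp2 6.50, 7.86 and 9.94 (-2.41, adjusted p = 1.4e-07). Of 14 crystallins 5 were lower at E10.5 than later with replicate 3 and 12 without it. The 5 genes are 35.7%, against 6.63% called lower over all tested genes. The Crybb1 difference was -3.23 with it (adjusted p = 0.00517) and -4.99 without it (adjusted p = 1e-08), and 0.10 in the low control set. The crystallin result against later lens thus rests on which E10.5 arrays enter. Capsule genes were lower at E10.5 than later for Col4a1 (-1.02), Col4a5 (-0.96), Col4a6 (-1.22) and Nid1 (-0.93), 7 of 18 tested being lower and 3 higher. These shares were 38.9% and 16.7%, against 6.63% lower and 10.4% higher over all tested genes. Cdkn1c (-1.05) and Cap2, an actin-binding cyclase-associated protein (-2.22 ± 0.20), were lower as well.

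**Figure D5:**
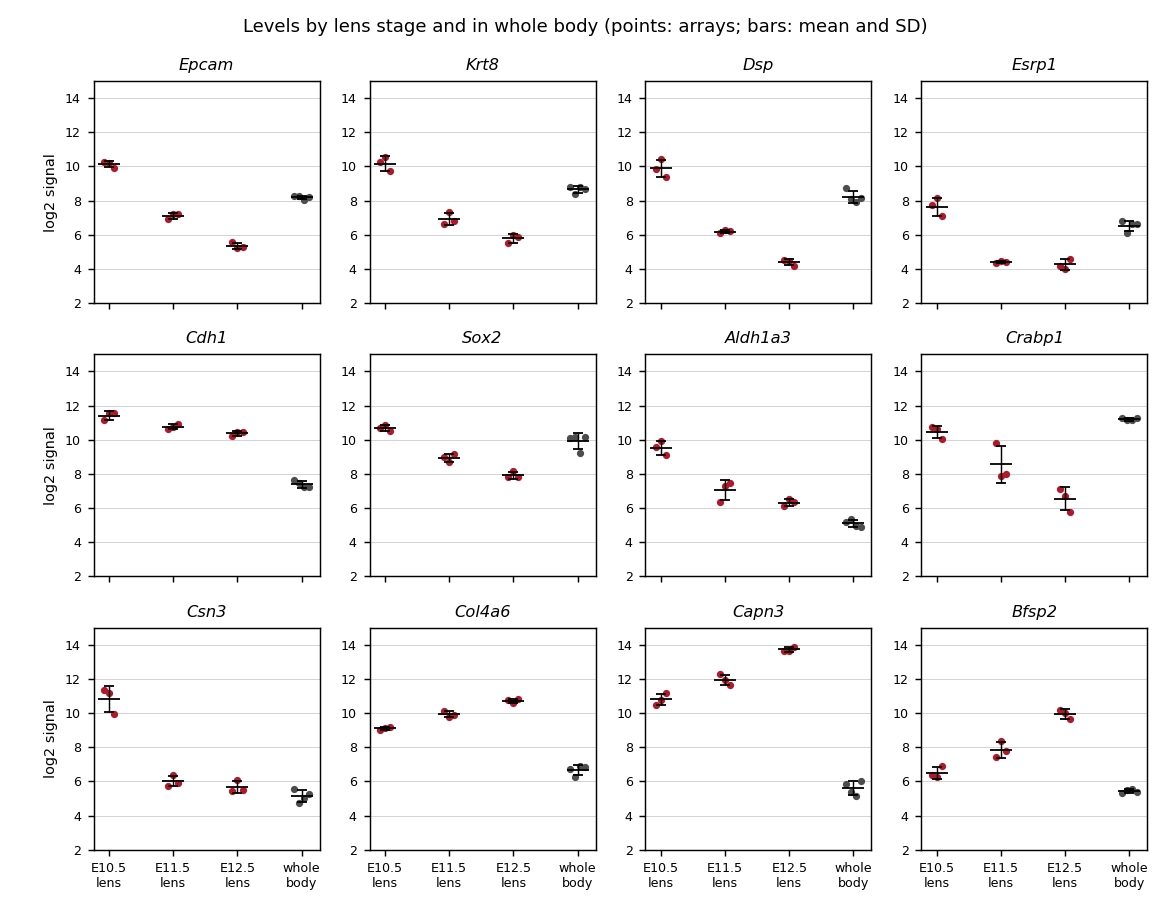
Log2 signal of 12 genes in E10.5, E11.5 and E12.5 lens and in whole body, with points for arrays and bars for the mean and SD. Epcam, Krt8, Dsp, Esrp1 and Sox2 stand above body at E10.5 and below it at E12.5, Csn3 drops between E10.5 and E11.5, and Capn3 and Bfsp2 climb with stage.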

How the data were processed

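Affymetrix expression arrays measured RNA of 19 mouse samples. The deposited values are probe set intensity on a linear scale, made by the authors with RMA and affy 0.7, per the submitters' processing notes; log2 was taken here of the deposited intensity. Of the probe sets 34945 name 1 gene, and the one with the highest mean log2 over all 19 arrays stood for its gene. Differences were fitted with limma 3.58.1 in R 4.3.3, with 1 mean per title group over all 19 arrays and a shared spread, two-sided, with Benjamini-Hochberg adjustment over 13320 genes. The script was tested on simulated data. The number of arrays limits the precision.

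Named genes were the 15 largest rises and 15 largest falls whose arrays do not overlap with and without E10.5 replicate 3, up to 8 called members per direction in each gene list with members against its majority, the 10 largest differences each way from later lens, the 15 each way in which replicate 3 departs most, and a short list always named. Further list members and the Y-linked genes were named after their values were seen. The members and lists were chosen with earlier results of these data known. Alternatives covered single arrays, samples in the fit, control arrays, scaling, filter, probe set rule, variance model, array weights, replicate block and control signal set. Leaving out single E11.5 and E12.5 arrays was chosen after seeing the data. Listed genes with no probe set of their own were not analysed here.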

Additional observations from a re-analysis of the deposited data

Results flagged for a closer look

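Among 273 named genes, 13 had 1 of the 4 whole-body arrays far from the others by Dixon's criterion, which chance alone meets in about 1 of 20 groups. In body replicate 3, Crim1 was at 7.37, Cryba2 at 6.41, Epcam at 8.06, Fabp5 at 12.63, Kdm5d at 6.04, Lef1 at 7.62, Sox2 at 9.22 and Tfap2a at 7.51. Of these, Crim1 and Cryba2 were above the other body arrays and the rest below them. In body replicate 2, Hes1 was at 9.20 and Jag1 at 9.26, both above the others. In body replicate 4, Gcg was at 4.71, Nefl at 11.02 and Postn at 10.92.

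For 17 genes the limma test called the E10.5 and E12.5 lens on opposite sides of body and also called the E10.5 lens against later lens. Both stages share the body arrays. The difference between E10.5 and later lens was 4.58 for Dsp, 3.89 for Epcam, 3.80 for Krt8, 3.57 for Has2, 3.52 for Tnc, 3.32 for Esrp1, 3.31 for Cbln2, 2.99 for Spink1, 2.53 for Krt18, 2.26 for Sox2, 1.41 for Spint1, 1.19 for Cenpa, 0.93 for Plk1 and 0.89 for Cdk1. The mean of these 14 genes was above body at E10.5 and below it at E12.5. Fgfr3 (-2.12), Pmp22 (-2.27) and Tmod1 (-2.16) ran the other way, with the E10.5 and body arrays of Fgfr3 overlapping.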

How the results depend on the processing

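Without single arrays, genes higher than body numbered 1357 to 1683 and genes lower 2159 to 2463, against 1797 and 2548 with all arrays. Genes higher than later lens numbered 804 to 1430 and lower 483 to 1298, against 1388 and 883. Within the low control set, 962 genes were higher than body, and 418 were higher and 267 lower than later lens. With only the lens arrays in the fit 576 genes were lower than later lens, and with array weights 1736. Replicate numbers did not pair the arrays (same-number correlations of deviations -0.422, 0.244 and -0.312), and the replicate block gave 1669 higher and 2349 lower than body. Gapdh probe sets at the 3′ end exceeded those at the 5′ end by 3.84 to 4.08 log2 units in the 3 tooth-series whole-body arrays. In the 4 whole-body arrays of the lens series this was -0.07 to 0.01. Tooth-series arrays also entered the shared spread and the choice of probe set. With only the E10.5 lens and lens-series body arrays in the fit, 1843 genes were called higher and 2703 lower than body. The effect on the choice of probe set was not tested. With all 7 whole-body arrays as control, the difference turned sign for Btg2 (0.39), Crabp2 (0.12), Eif2s3y (0.94), Fbln1 (0.24), Kdm5d (0.81), Pecam1 (0.78), Ptprc (-0.15), Tjp1 (-0.03) and Uty (0.18). With the mean of all probe sets it did so for Enah (0.14) and Myh10 (0.03), and against later lens within the low set for Cryba2 (0.04), Cryba4 (1.12) and Crybb1 (0.10). The cause was not tested. Of the values of named genes under the alternatives, 7109 kept direction and side of the threshold and 489 kept direction but no longer passed it. Low signal limits the size of differences for genes under the filter level.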
